A study of Mus musculus with 14 samples.

Results

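Cholesterol efflux, lipoprotein, lipid droplet and oxysterol genes were followed in RNA of mouse microglia, the resident macrophages of the brain. They were 10 genes, listed by function as liver X receptor (LXR), efflux, lipoprotein, lipid droplet and oxysterol genes: Nr1h3, Abca1, Abcg1, Mylip, Apoe, Apoc1, Lpl, Plin2, Soat1 and Ch25h. The table held 41739 genes, and all 10 were found in it by symbol. These genes and the lists used below were chosen with earlier results of these data known. Their counts beside the share of all genes are therefore descriptions. The study addressed Rheb, a small GTPase that activates the growth kinase complex mTORC1, in microglia with and without lipopolysaccharide (LPS), the endotoxin of Gram-negative bacteria. The 4 groups were KO LPS (4 libraries), WT LPS (4 libraries), KO PBS (3 libraries) and WT PBS (3 libraries). KO mice were Rheb F/F; Tmem119-cre ER and WT mice were Rheb F/F, so floxed Rheb alleles were common to all groups and the tamoxifen-inducible Cre, driven from the microglial gene Tmem119, was in the KO groups alone. What Cre itself or the altered Tmem119 locus does therefore cannot be told apart from what loss of Rheb does. All mice were 8 weeks old, had received tamoxifen, and were injected intraperitoneally each day for 4 days with LPS at 1.0 mg/kg or with PBS, and microglia were taken from the brain by magnetic cell sorting. Whether replicate libraries are separate mice is not in the labels, and each p-value therefore speaks of the variation among these libraries, which may be technical.

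A macrophage that takes up cholesterol can export it, store it or turn it into signalling sterols. LXR, a nuclear receptor switched on by oxysterols, raises transcription of the transporters ABCA1 and ABCG1, which load cholesterol onto apolipoproteins such as APOE, and of MYLIP, a ubiquitin ligase that limits lipoprotein uptake. Excess sterol is esterified by SOAT1 and kept in droplets coated by PLIN2, LPL frees fatty acids from lipoproteins, and CH25H makes 25-hydroxycholesterol, an oxysterol that macrophages release under inflammatory stimuli.

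The promoters of Ch25h and Abca1 are shown because Ch25h had the largest LPS difference of the 10 genes and Abca1 was the only one of them called between KO and WT, averaged over treatments. The Abca1 call was lost in 14 of the 27 other settings. Each sequence shown is the 250 bases before the annotated start, 5′ to 3′ on the gene's strand, from RefSeq on GRCm38.p6. Ch25h lies on the minus strand at chr19:34475149-34475398, with a cyclic AMP response element (TGACGTCA) and an NF-kB type match (GGGA, any 4 bases, CC) in capitals. Abca1 lies on the minus strand at chr4:53159896-53160145, with an E-box (CACGTG) in capitals, followed by the 2 half-sites of the closest match to the DR4 element that LXR binds (AGGTCA, any 4 bases, AGGTCA).
Ch25h: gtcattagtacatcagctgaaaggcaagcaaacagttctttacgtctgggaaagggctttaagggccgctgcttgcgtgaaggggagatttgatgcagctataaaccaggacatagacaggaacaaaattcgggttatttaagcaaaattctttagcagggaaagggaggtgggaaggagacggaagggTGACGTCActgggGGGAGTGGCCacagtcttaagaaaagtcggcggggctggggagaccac
Abca1: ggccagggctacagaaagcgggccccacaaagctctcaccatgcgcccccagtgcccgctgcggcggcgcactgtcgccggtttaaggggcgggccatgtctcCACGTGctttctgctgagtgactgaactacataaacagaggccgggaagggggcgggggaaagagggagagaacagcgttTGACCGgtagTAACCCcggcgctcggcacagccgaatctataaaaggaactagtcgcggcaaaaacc
Of 32851 promoter windows searched on both strands, 17.6% held the NF-kB type match, 1.55% the cyclic AMP element and 6.02% the E-box. The Abca1 match to DR4 is on the reverse strand, from -67 to -52 before the start, and differs from the searched letters at 3 positions. A match that close or closer was in 18.5% of windows, and the exact letters were in 5 windows, none of them of the 10 genes. The closest match to DR4 in Ch25h, from -93 to -78, differs at 4 positions and was left in small letters. At most 4 differences were found in 70.6% of windows. RefSeq windows were held for 7 of the 10 genes, and Abcg1, Lpl and Apoc1 had none. In Ch25h the capitals run from -61 to -54 and from -48 to -39, and in Abca1 the E-box runs from -147 to -142. Also searched, and absent from both windows shown, were the nuclear receptor half-site AGGTCA (14.02% of windows), which is part of DR4, an AP-1 site (TGA, any base, TCA; 6.75%), an interferon element (TTTC, any 2 bases, TTTC; 2.98%) and a sterol element (TCAC, any base, CCAC; 1.05%). A match in letters is a description of the sequence and was not tested as a binding site.

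The values are TPM, reads per gene length scaled to a total of 1000000 in each library, so levels can be compared between genes. The shallowest library was KO_LPS_4 with 8.00 M reads recovered from the table (M, 1000000 reads) and the deepest WT_LPS_1 with 32.3 M, and the lowest read counts of a library were 8 for Apoc1, 17 for Ch25h and 41 for Nr1h3. Rheb averaged 22.7 TPM in KO LPS and 30.8 TPM in WT LPS libraries, and 18.2 TPM in KO PBS and 32.1 TPM in WT PBS libraries. Tmem119 averaged 844 TPM in KO LPS and 1733 TPM in WT LPS, and 2114 TPM in KO PBS and 3467 TPM in WT PBS. The series' design text names female mice, but Xist, from the inactive X chromosome, was at 255 to 574 TPM in all LPS libraries and at most 0.147 TPM in the PBS libraries, and Ddx3y, a Y-linked gene, was at most 0.270 TPM in LPS and 111 to 146 TPM in PBS libraries. LPS and sex therefore cannot be told apart in this table. That limit holds for every LPS over PBS value below and for every difference of the KO effect between the treatments. The pituitary hormone transcript Gh reached 19672 TPM in KO_LPS_3 and 78126 TPM in WT_PBS_914, and the short RNA gene Gm23935 took 40440 to 153781 TPM in LPS libraries and 566 to 2477 TPM in PBS libraries. Over the 12 microglial markers, all of which reached 1 TPM, the summed level was 19688 to 26525 TPM in KO LPS, 26787 to 30639 TPM in WT LPS, 37810 to 41128 TPM in KO PBS and 32317 to 42209 TPM in WT PBS libraries. In such bulk libraries fewer cells of a type and less RNA per cell cannot be told apart.

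Between LPS and PBS, Ch25h, Nr1h3, Plin2 and Apoc1 were called higher and Mylip lower in both genotypes. Apoe and Abca1 were not called in either with TPM as deposited, but in WT both were called higher with median-of-ratios scaling and with voom on recovered reads. In KO microglia 6 of the 10 genes were called, 4 of them higher and 2 lower, where 34.7% of all 18724 genes tested were called, 7.82% higher and 26.9% lower. In WT microglia 6 of the 10 were called, 5 higher and 1 lower, where 42.0% of all genes tested were called, 7.95% higher and 34.1% lower. LPS and PBS libraries did not overlap for 8 of the 10 genes in KO, 6 higher and 2 lower, where 40.8% of all genes tested did not, 9.52% higher and 31.3% lower. They did not overlap for 6 of the 10 in WT, 5 higher and 1 lower, where 45.9% of all genes tested did not, 8.45% higher and 37.4% lower. An unadjusted p under 0.05 was reached by 7 of the 10 in KO, beside 44.6% of all genes, and by 6 of the 10 in WT, beside 50.5% of all genes. A call is an adjusted p under 0.05 from limma's moderated test on log2(TPM + 1), with Benjamini-Hochberg adjustment over all genes tested. Every one of the 10 genes was above 1 TPM in all 14 libraries, the lowest value being 2.04 TPM for Apoc1 in WT_PBS_914, so the filter on low values removed none. The median log2 fold change of all genes tested was -0.22 in KO and -0.28 in WT, and the medians of the 10 genes were 0.54 and 0.57, so called values are also given relative to that shift. Relative to it, Ch25h stood at 4.33 in KO and 5.203 in WT, Apoc1 at 2.32 in KO and 1.85 in WT, Plin2 at 1.38 in KO and 1.18 in WT, and Mylip at -0.91 in KO and -0.15 in WT. The split of calls depends on scaling: with median-of-ratios scaling 6 of the 10 genes rose and 1 fell in KO, and 7 rose and 0 fell in WT, while over all genes the share of calls that were higher was 54.8% in KO and 55.0% in WT, against 22.6% and 18.9% with TPM as deposited.

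**Figure D1:**
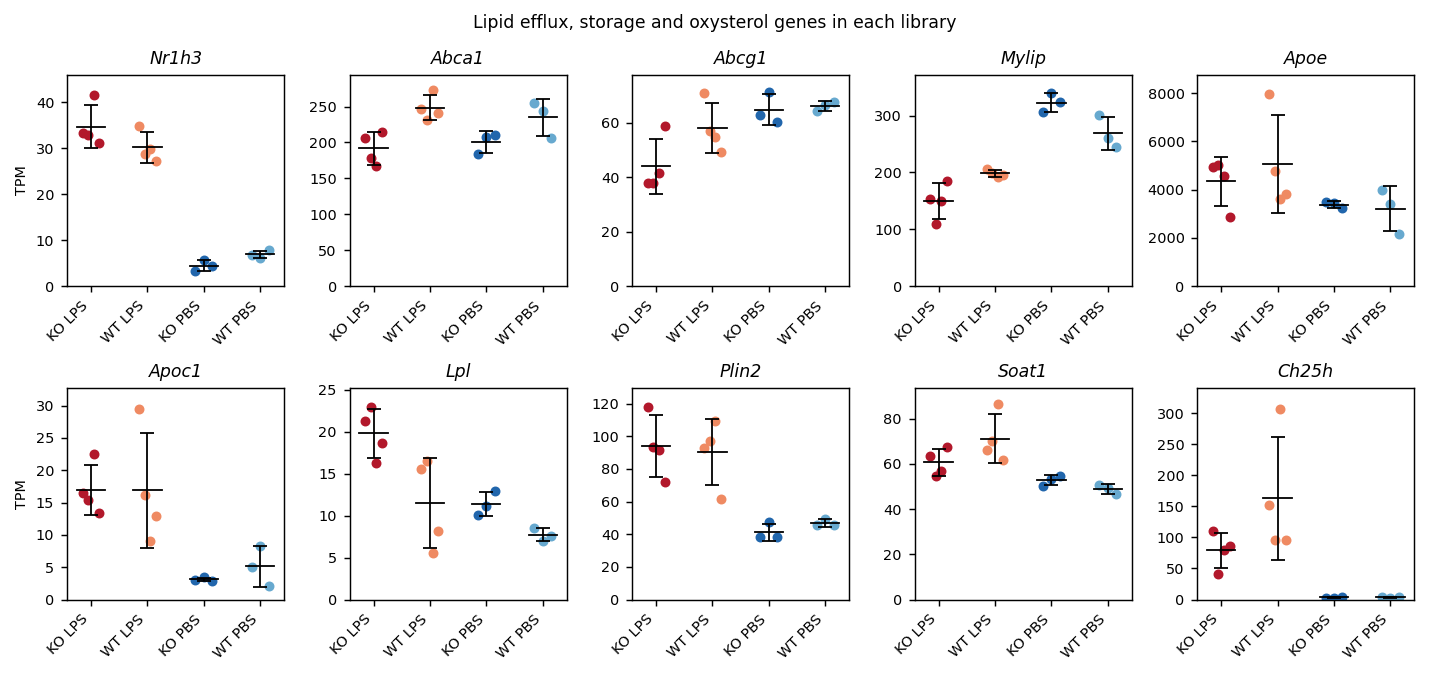
TPM of each of the 10 genes in every library (points) with the group mean and SD (black bars), for KO LPS and WT LPS (4 libraries each) and KO PBS and WT PBS (3 each), each panel with its own linear axis from 0. Ch25h stands at 40.4 to 307 TPM in LPS and at 2.66 to 4.66 TPM in PBS libraries, and Mylip is the gene whose KO libraries lie below WT under LPS and above WT under PBS.

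Nr1h3 (ENSMUSG00000002108, chromosome 2) encodes LXR alpha, a form of the receptor. Libraries of a group are listed throughout in ascending order of the number in their names. Nr1h3 had 33.2, 32.9, 41.5 and 31.1 TPM in KO LPS libraries, against 3.34, 5.69 and 4.43 TPM in KO PBS libraries. It had 34.9, 28.7, 29.9 and 27.3 TPM in WT LPS libraries, against 6.82, 6.23 and 7.77 TPM in WT PBS libraries. All LPS libraries stood above all PBS libraries, and among the PBS libraries every KO value lay below every WT value. Nr1h3 rose with LPS by 2.72 on the log2 scale in KO (SE 0.153, adjusted p = 2.43e-07) and by 1.97 in WT (SE 0.153, adjusted p = 3.86e-06), or 2.94 and 2.25 relative to the median gene. The ratio of mean TPM, LPS over PBS, was 7.73 in KO and 4.35 in WT. KO over WT was -0.55 under PBS (SE 0.163, adjusted p = 0.129) and 0.19 under LPS (SE 0.141, adjusted p = 0.643), neither of them called. The difference between those 2 values was 0.74 (SE 0.216, unadjusted p = 0.00435, adjusted p = 0.413), so it was not called either. The noncoding gene Gm13783 shares exon bases with Nr1h3 on the same strand and was at most 4.20 TPM, in a KO PBS library.

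Abca1 (ENSMUSG00000015243, chromosome 4) encodes the transporter that passes cholesterol and phospholipid to lipid-poor apolipoproteins. Under LPS it had 206, 179, 167 and 215 TPM in KO libraries, against 247, 232, 273 and 241 TPM in WT libraries. Under PBS it had 183, 207 and 211 TPM in KO libraries, against 255, 243 and 206 TPM in WT libraries. Under LPS every KO library was below every WT library, and under PBS the groups overlapped, with WT_PBS_914 as low as the KO libraries. KO over WT was -0.38 under LPS (SE 0.0968, adjusted p = 0.111; exact permutation test, two-sided, p = 0.0286, the smallest that 4 against 4 libraries allow) and -0.23 under PBS (SE 0.112, adjusted p = 0.350). Averaged over both treatments Abca1 fell by 0.30 on the log2 scale in KO relative to WT (SE 0.0739, adjusted p = 0.0406), the only call among the 10 genes in that comparison, where 3.94% of all genes tested were called, 3.03% higher and 0.913% lower. Of those calls 76.8% were positive, and 55.8% with median-of-ratios scaling. That call was lost in 14 of the 27 other settings, 10 of them single libraries left out, with adjusted p from 0.00687 to 0.113 and log2 values from -0.35 to -0.27. The 10 libraries were all 3 of KO PBS, WT_PBS_904, WT_PBS_913, KO_LPS_2, KO_LPS_3, WT_LPS_1, WT_LPS_3 and WT_LPS_4. LPS over PBS was -0.07 in KO (adjusted p = 0.647) and 0.08 in WT (adjusted p = 0.559). With median-of-ratios scaling the KO value changed sign, to 0.20, and the WT value was larger, at 0.42 (adjusted p = 0.0106). Voom also called the WT value (0.24, adjusted p = 0.0478).

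Abcg1 (ENSMUSG00000024030, chromosome 17) encodes a half-transporter that moves cholesterol to mature lipoprotein particles. It had 37.9, 37.9, 41.6 and 59.0 TPM in KO LPS libraries, against 62.8, 71.4 and 60.4 TPM in KO PBS libraries. In WT LPS libraries it had 70.8, 57.1, 54.7 and 49.1 TPM, against 64.2, 66.7 and 67.5 TPM in WT PBS libraries. Of the KO LPS libraries, 3 lay together and KO_LPS_4, the shallowest library, came close to the PBS values without reaching them, while the WT groups overlapped. Abcg1 fell with LPS in KO by 0.57 on the log2 scale (SE 0.149, adjusted p = 0.0107), or -0.35 relative to the median gene. That call was lost with median-of-ratios scaling (-0.31, adjusted p = 0.135), with quantile normalisation (-0.38, adjusted p = 0.0595), with Gm23935, mitochondrial, ribosomal protein and haemoglobin genes removed (-0.41, adjusted p = 0.0531) and without KO_PBS_912 (-0.50, adjusted p = 0.0530). In WT the difference was -0.20 (SE 0.149, adjusted p = 0.301), and the difference between the genotypes was -0.37 (SE 0.211, adjusted p = 0.591). Between genotypes, KO over WT was -0.40 under LPS (SE 0.138, adjusted p = 0.262) and -0.03 under PBS (SE 0.160, adjusted p = 0.949).

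Mylip (ENSMUSG00000038175, chromosome 13) encodes a ubiquitin ligase, also known as IDOL, that targets lipoprotein receptors, and it was the only 1 of the 10 genes whose KO and WT libraries separated under both treatments. Under LPS it had 153, 109.9, 149.6 and 186 TPM in KO libraries, against 206, 199, 192 and 196 TPM in WT libraries. Under PBS it had 306, 339 and 323 TPM in KO libraries, against 301, 260.5 and 244 TPM in WT libraries. Every KO library was below every WT library under LPS and above every WT library under PBS, although KO_PBS_911 and WT_PBS_904 were only a few TPM apart. Such a switch without overlap was seen in 52 of the genes tested, 0.278%. KO over WT was -0.43 under LPS (SE 0.125, adjusted p = 0.160; exact permutation test, two-sided, p = 0.0286) and 0.27 under PBS (SE 0.144, adjusted p = 0.390; exact permutation test, two-sided, p = 0.1, the smallest that 3 against 3 libraries allow). The difference between those 2 values was -0.70 (SE 0.191, unadjusted p = 0.0029), with adjusted p = 0.397 over all genes tested, so it was not called. Mylip fell with LPS in KO by 1.13 on the log2 scale (SE 0.135, adjusted p = 7.33e-05), to 46.3% of the KO PBS mean. In WT it fell by 0.43 (SE 0.135, adjusted p = 0.0218), to 73.9% of the WT PBS mean, a value only -0.15 from the median gene. The WT call was lost with median-of-ratios scaling (-0.09, adjusted p = 0.565), with the abundant gene classes removed (-0.28, adjusted p = 0.128), with voom on recovered reads (-0.27, adjusted p = 0.0748) and without WT_PBS_904 (-0.34, adjusted p = 0.0995).

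Apoe (ENSMUSG00000002985, chromosome 7), the main apolipoprotein secreted in brain, was the most abundant of the 10 transcripts. It had 4951, 5002, 4577 and 2849 TPM in KO LPS libraries, against 3478, 3431 and 3232 TPM in KO PBS libraries. In WT LPS libraries it had 7985, 4791, 3593 and 3837 TPM, against 4007, 3417 and 2181 TPM in WT PBS libraries. The groups overlapped in every comparison, with WT_LPS_1 far above the rest and WT_PBS_914 the lowest of all 14. LPS over PBS was 0.33 in KO (95% interval -0.31 to 0.97, adjusted p = 0.425) and 0.63 in WT (95% interval -0.01 to 1.27, adjusted p = 0.105). In WT it was called with median-of-ratios scaling (0.97, adjusted p = 0.0230), with library weights (0.64, adjusted p = 0.0487) and with voom on recovered reads (0.79, adjusted p = 0.0281). For KO over WT the value was -0.18 under LPS (95% interval -0.77 to 0.42) and 0.12 under PBS (95% interval -0.56 to 0.81), so differences of either sign within those bounds were not excluded. WT_PBS_914 also had the highest neutrophil marker sum of the PBS libraries, 23024 TPM, and the lowest border macrophage sum, 926 TPM. Of the PBS libraries it was also the highest in pituitary markers, at 88941 TPM, and the lowest in microglial markers, at 32317 TPM. Without it KO over WT under PBS was -0.13, and the part of these cells in Apoe was not tested.

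Apoc1 (ENSMUSG00000040564, chromosome 7), the gene next to Apoe on the chromosome, encodes a small lipoprotein component. It had 16.5, 15.4, 22.4 and 13.4 TPM in KO LPS libraries, against 3.03, 3.41 and 2.90 TPM in KO PBS libraries. It had 29.5, 16.2, 9.02 and 12.98 TPM in WT LPS libraries, against 5.03, 8.30 and 2.04 TPM in WT PBS libraries. All LPS libraries were above all PBS libraries of their genotype, and WT_LPS_3 came within 1 TPM of the highest PBS library. Apoc1 rose with LPS in KO by 2.10 on the log2 scale (SE 0.377, adjusted p = 0.00106) and in WT by 1.57 (SE 0.377, adjusted p = 0.00566). The mean ratios of LPS over PBS were 5.44 in KO and 3.30 in WT. The other genes of the cluster, Apoc2 and Apoc4, were at most 0.971 and 0.242 TPM and were not tested. Between KO and WT the difference was 0.10 under LPS (SE 0.349, adjusted p = 0.945) and -0.43 under PBS (SE 0.403, adjusted p = 0.636). The PBS value rests on single libraries, being -0.06 without WT_PBS_913 and -0.87 without WT_PBS_914, and was called in neither case.

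Lpl (ENSMUSG00000015568, chromosome 8) encodes lipoprotein lipase, an enzyme that microglia secrete. Under LPS it had 21.3, 23.0, 16.3 and 18.7 TPM in KO libraries, against 15.6, 16.5, 5.60 and 8.22 TPM in WT libraries. Under PBS it had 10.1, 11.2 and 12.9 TPM in KO libraries, against 8.57, 7.004 and 7.61 TPM in WT libraries. KO libraries were the higher ones under both treatments, without overlap under PBS and with KO_LPS_3 just below WT_LPS_2 under LPS. KO over WT was 0.84 under LPS (SE 0.260, adjusted p = 0.196), 0.50 under PBS (SE 0.300, adjusted p = 0.434) and 0.67 averaged over both (SE 0.198, adjusted p = 0.0859), none of them called. WT_LPS_3 bears on the first value, which was 0.58 without it. LPS over PBS was 0.74 in KO (SE 0.281, adjusted p = 0.0554) and 0.40 in WT (SE 0.281, adjusted p = 0.264), and the difference between the genotypes was 0.34 (SE 0.397, adjusted p = 0.802). All KO LPS libraries were above all KO PBS libraries, and the KO value was called in 11 other settings, among them median-of-ratios scaling (0.99, adjusted p = 0.0191). The WT value was called in 3, which were quantile normalisation (0.79, adjusted p = 0.0339), library weights (0.67, adjusted p = 0.0379) and leaving out WT_LPS_3 (0.67, adjusted p = 0.0331).

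Plin2 (ENSMUSG00000028494, chromosome 4) encodes perilipin 2, the coat protein that marks lipid droplets in macrophages. It had 118, 93.7, 91.8 and 71.8 TPM in KO LPS libraries, against 38.3, 47.2 and 38.1 TPM in KO PBS libraries. In WT LPS libraries it had 93.1, 97.3, 109 and 61.7 TPM, against 45.5, 49.5 and 45.7 TPM in WT PBS libraries. LPS libraries lay above PBS libraries in both genotypes, and KO and WT libraries were intermixed under LPS. Plin2 rose with LPS in KO by 1.15 on the log2 scale (SE 0.184, adjusted p = 0.000488) and in WT by 0.90 (SE 0.184, adjusted p = 0.0023), a mean ratio of 2.28 in KO and 1.92 in WT. Between KO and WT the difference was 0.06 under LPS (95% interval -0.30 to 0.43) and -0.19 under PBS (95% interval -0.61 to 0.23).

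Soat1 (ENSMUSG00000026600, chromosome 1) encodes the acyltransferase that esterifies cholesterol in most tissues. It had 63.7, 54.8, 57.0 and 67.7 TPM in KO LPS libraries, against 50.3, 53.3 and 54.6 TPM in KO PBS libraries. It had 66.4, 70.3, 86.4 and 61.6 TPM in WT LPS libraries, against 50.7, 49.4 and 46.5 TPM in WT PBS libraries. LPS libraries were above PBS libraries in both genotypes, narrowly in KO, where KO_LPS_2 and KO_PBS_915 were within 1 TPM. Soat1 rose with LPS in WT by 0.52 on the log2 scale (SE 0.107, adjusted p = 0.00233), or 0.81 relative to the median gene. In KO the difference was 0.20 (SE 0.107, adjusted p = 0.171), and it was called with median-of-ratios scaling (0.46, adjusted p = 0.00793), quantile normalisation (0.40, adjusted p = 0.0033), the abundant gene classes removed (0.36, adjusted p = 0.0158) and voom (0.40, adjusted p = 0.0065). The difference between the genotypes was -0.32 (SE 0.151, unadjusted p = 0.0519, adjusted p = 0.528), so a distinct response of KO was not shown. The KO over WT value was -0.22 under LPS (SE 0.0990, adjusted p = 0.423), -0.12 without WT_LPS_3, and 0.11 under PBS (SE 0.114, adjusted p = 0.683).

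Ch25h (ENSMUSG00000050370, chromosome 19), whose promoter is printed above, encodes cholesterol 25-hydroxylase. It had 110.3, 40.4, 79.1 and 86.3 TPM in KO LPS libraries, against 2.66, 2.997 and 4.66 TPM in KO PBS libraries. In WT LPS libraries it had 152, 96.7, 307 and 95.7 TPM, against 4.12, 2.91 and 4.52 TPM in WT PBS libraries. The lowest LPS library was KO_LPS_2 and the highest WT_LPS_3, and no PBS library came near either. Ch25h rose with LPS in KO by 4.11 on the log2 scale (SE 0.391, adjusted p = 1.48e-05) and in WT by 4.92 (SE 0.391, adjusted p = 4.71e-06). In mean TPM those were ratios of 23.0 in KO and 42.3 in WT, and the difference between the genotypes was -0.81 (SE 0.553, adjusted p = 0.650). KO over WT under LPS was -0.95 (SE 0.362, adjusted p = 0.318), with 79.1 ± 29.0 TPM in KO and 163 ± 99.5 TPM in WT (SD, n = 4 each) and overlapping groups (exact permutation test, two-sided, p = 0.114). Without WT_LPS_3 that value was -0.59, and it was -0.66 without KO_LPS_2. WT_LPS_3 also had the highest monocyte marker sum of the 14 libraries, 1980 TPM, and 21145 TPM over the neutrophil markers. KO_LPS_2, the LPS library lowest in Ch25h, had 1622 TPM over the monocyte markers and 22995 TPM over the neutrophil markers. The part of these cells in Ch25h was not tested. The noncoding gene Gm26902 on the opposite strand shares exon bases with Ch25h and was at most 2.42 TPM.

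**Figure D2:**
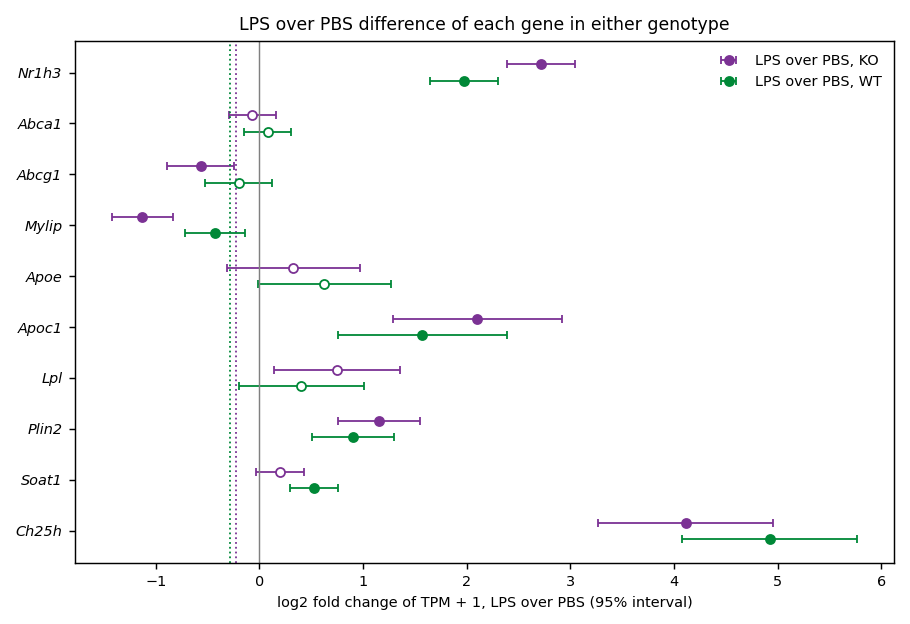
Log2 fold change of TPM + 1, LPS over PBS, for each gene in KO (purple) and WT (green), with 95% intervals from limma. Filled points are called at an adjusted p under 0.05, open points are not, and dotted lines mark the median of all genes tested, -0.22 in KO and -0.28 in WT; Ch25h, Nr1h3, Apoc1 and Plin2 are filled to the right and Mylip to the left in both genotypes.

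Markers of other cells differed between LPS and PBS libraries to unequal degrees. The 6 monocyte markers summed to 974.8 to 1980 TPM in LPS libraries and 215 to 937 TPM in PBS libraries, and the 8 neutrophil markers to 8990 to 24334 TPM in LPS and 4991 to 23024 TPM in PBS libraries. The 10 border macrophage markers summed to 887 to 1518 TPM in LPS and 926 to 1812 TPM in PBS libraries, the 9 astrocyte markers to 186 to 386 TPM in LPS and 302 to 502 TPM in PBS libraries, and the 5 choroid plexus markers to 2280 to 14523 TPM in LPS and 10858 to 25848 TPM in PBS libraries. Every marker of these 5 lists reached 1 TPM in some library, and none was at 0 in all libraries of a group. The 9 neuronal markers summed to at most 58.0 TPM in any library. Their part in the LPS differences of the 10 genes was not tested.

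Between KO and WT the question was which of these genes depend on Rheb, and no gene of the 10 was called under either treatment. Under LPS limma called 0 of the 10, where 0.497% of all genes tested were called (0.256% higher and 0.240% lower); 6 of the 10 had an unadjusted p under 0.05, where 11.7% of all genes did, and voom on recovered reads called 1, Abca1. Those 6 were Abca1, Mylip, Abcg1, Ch25h and Soat1, with negative values, and Lpl, with a positive one. Because the 10 genes were chosen with earlier results of these data known, nothing is concluded from such counts standing above the share of all genes. Groups without overlap were found for 2 of the 10 under LPS, Abca1 and Mylip, both lower in KO, where 6.18% of all genes tested were without overlap, 4.22% higher and 1.96% lower. Under PBS limma called 0 of the 10, where 1.02% of all genes tested were called (0.796% higher and 0.224% lower); 1 of the 10, Nr1h3, had an unadjusted p under 0.05, where 15.7% of all genes did, and voom called 0. Groups without overlap were found for 3 of the 10 under PBS, Mylip and Lpl higher and Nr1h3 lower in KO, where 25.8% of all genes tested were without overlap, 14.9% higher and 10.9% lower. With median-of-ratios scaling 2 of the 10 genes, Abca1 and Mylip, were called lower under LPS, and the share of calls over the whole table that were higher in KO was 15.7% under LPS and 67.4% under PBS, against 51.6% and 78.0% with TPM as deposited. The median KO over WT value of the 10 genes was -0.20 under LPS and -0.08 under PBS, beside 0.07 and -0.00 for all genes tested. No gene of the 10 and 0% of all genes tested were called for a difference of the KO effect between the treatments; 2 of the 10, Mylip and Nr1h3, had an unadjusted p under 0.05, where 9.51% of all genes did, and voom called 0. Rheb itself was called lower in KO under PBS (-0.79, adjusted p = 0.0163) and not under LPS (-0.42, adjusted p = 0.1104), and the microglial marker sum of KO LPS libraries lay wholly below that of WT LPS libraries. That sum includes Tmem119, the Cre driver gene. Without it the sums overlapped, at 18924 to 25508 TPM in KO LPS and 25179 to 28856 TPM in WT LPS libraries, and the part of marker levels in the KO LPS values was not tested.

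**Figure D3:**
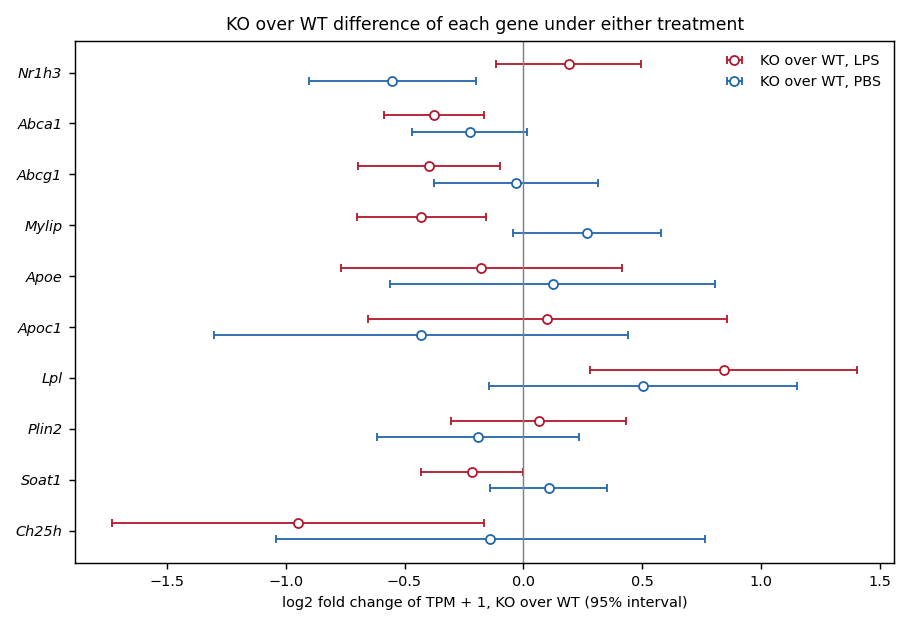
Log2 fold change of TPM + 1, KO over WT, for each gene under LPS (red) and PBS (blue), with 95% intervals from limma. All points are open, as none was called at an adjusted p under 0.05; the intervals of Abca1, Abcg1, Mylip, Soat1 and Ch25h lie below 0 under LPS, that of Lpl above 0 under LPS, and that of Nr1h3 below 0 under PBS.

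By level, the order of mean TPM in WT PBS libraries was Apoe (3202 ± 932), Mylip (269 ± 29.6), Abca1 (235 ± 25.7), Abcg1 (66.1 ± 1.73), Soat1 (48.9 ± 2.15), Plin2 (46.9 ± 2.23), Lpl (7.73 ± 0.788), Nr1h3 (6.94 ± 0.778), Apoc1 (5.12 ± 3.13) and Ch25h (3.85 ± 0.837) (SD, n = 3 each). Neighbours whose library ranges overlapped were Mylip and Abca1, Soat1 and Plin2, Lpl and Nr1h3, Nr1h3 and Apoc1, and Apoc1 and Ch25h. In WT LPS libraries the order was Apoe (5051 ± 2023), Abca1 (248 ± 17.5), Mylip (198 ± 6.16), Ch25h (163 ± 99.5), Plin2 (90.3 ± 20.3), Soat1 (71.2 ± 10.8), Abcg1 (57.9 ± 9.20), Nr1h3 (30.2 ± 3.32), Apoc1 (16.9 ± 8.89) and Lpl (11.5 ± 5.38) (SD, n = 4 each). There the ranges of Mylip and Ch25h, Ch25h and Plin2, Plin2 and Soat1, Soat1 and Abcg1, Nr1h3 and Apoc1, and Apoc1 and Lpl overlapped.

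The lists of 97 further genes of the same pathways, 88 of them tested, had more lower than higher calls after LPS, as all genes tested had. In KO 11 were called higher and 37 lower, where 7.82% of all genes tested were called higher and 26.9% lower. In WT 12 were called higher and 44 lower, where 7.95% of all genes were called higher and 34.1% lower. The median of the listed genes was -0.31 in KO and -0.35 in WT, beside -0.22 in KO and -0.28 in WT for all genes tested. With median-of-ratios scaling those splits were 17 higher and 19 lower in KO and 18 higher and 20 lower in WT. Of the calls as deposited, 30 of 48 in KO and 32 of 56 in WT were also called in the same direction with that scaling. Between KO and WT, limma called 1 listed gene under PBS, beside 1.02% of all genes, and 17 of the 88 had an unadjusted p under 0.05, beside 15.7% of all genes. Under LPS it called 0, beside 0.497% of all genes, where 14 of the 88 had an unadjusted p under 0.05, beside 11.7% of all genes, and voom called 2. Averaged over both treatments 4 were called, 1 higher and 3 lower, beside 3.94% of all genes.

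Sterol ester and droplet genes beside Plin2 and Soat1 included 2 called higher and 6 lower of 18 tested in KO (7.82% and 26.9% of all genes), and 1 higher and 8 lower in WT (7.95% and 34.1% of all genes). Soat2, which esterifies cholesterol chiefly in intestine and liver, averaged 41.8 ± 15.03 TPM in KO LPS and 2.69 ± 0.330 TPM in KO PBS libraries, a rise of 3.47 on the log2 scale (SE 0.280, adjusted p = 4.68e-06). In WT it averaged 53.6 ± 14.8 TPM in LPS and 3.22 ± 1.36 TPM in PBS libraries, a rise of 3.71 (SE 0.280, adjusted p = 3.25e-06). Dgat2, which makes triglyceride, rose by 1.35 in KO (adjusted p = 0.0227), a call that voom did not make (adjusted p = 0.0685), and was not called in WT (0.63, adjusted p = 0.239). Plin5, another droplet coat gene, fell by 1.49 in WT (adjusted p = 0.0104), a call lost with quantile normalisation (-1.10, adjusted p = 0.0649), and was not called in KO (-1.07, adjusted p = 0.0558). Mgll, a lipase of monoglycerides, fell by 1.13 in KO (adjusted p = 0.00012) and by 1.26 in WT (adjusted p = 7.7e-05). Hilpda, a droplet protein that restrains lipolysis, averaged 14.5 TPM in KO LPS and 11.1 TPM in WT LPS libraries, and 15.5 TPM in KO PBS and 8.85 TPM in WT PBS libraries; it rose by 0.56 in KO averaged over both treatments (SE 0.109, adjusted p = 0.0136).

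Uptake genes, 14 in number, gave 4 higher and 6 lower calls in KO, where 34.7% of all genes were called in either direction, and 5 higher and 6 lower in WT, where 42.0% were. Msr1, a scavenger receptor for modified lipoprotein, rose by 2.02 in KO (59.8 TPM in LPS, 13.6 TPM in PBS libraries, adjusted p = 0.00014) and by 2.35 in WT (65.3 TPM in LPS, 11.3 TPM in PBS libraries, adjusted p = 6.83e-05). Lrp1, a large receptor for APOE particles, fell by 1.03 in KO (256 TPM in LPS, 522 TPM in PBS libraries, adjusted p = 8e-06), and Sort1, a sorting receptor, fell by 0.93 in KO (adjusted p = 0.000413). In WT Lrp1 fell by 0.60 (adjusted p = 0.000357) and Sort1 by 0.73 (adjusted p = 0.00189), calls lost with median-of-ratios scaling (-0.26, adjusted p = 0.0687 for Lrp1 and -0.40, adjusted p = 0.0557 for Sort1). Sorl1, another sorting receptor, fell by 0.42 in KO relative to WT averaged over both treatments (SE 0.0987, adjusted p = 0.0324). Trem2, a lipid-sensing receptor of microglia, averaged 282 TPM in KO LPS and 375 TPM in WT LPS libraries (-0.41, adjusted p = 0.187), which was not called.

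Of 11 receptor partners and co-regulators 1 was called higher and 6 lower in KO, beside 7.82% and 26.9% of all genes, and 2 higher and 8 lower in WT, beside 7.95% and 34.1% of all genes. Pparg, a lipid-activated receptor, rose by 1.86 in KO (5.44 TPM in LPS, 0.805 TPM in PBS libraries, adjusted p = 0.000612) and by 1.34 in WT (5.46 TPM in LPS, 1.43 TPM in PBS libraries, adjusted p = 0.00433). Rxra, which pairs with LXR, fell by 0.80 in KO (adjusted p = 0.000144) and by 0.75 in WT (adjusted p = 0.000268). Nr1h2, the other LXR gene, was named here after its values were seen. It averaged 78.1 TPM in KO LPS and 93.3 TPM in KO PBS libraries, and 73.5 TPM in WT LPS and 90.4 TPM in WT PBS libraries. Those means were above the means of Nr1h3, which were 34.7 TPM in KO LPS, 4.49 TPM in KO PBS, 30.2 TPM in WT LPS and 6.94 TPM in WT PBS. Nr1h2 was called lower with LPS in both genotypes. With median-of-ratios scaling its values were 0.01 in KO and 0.04 in WT and were not called.

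Of 11 other LXR target genes 2 were called higher and 5 lower in each genotype, where the shares of all genes called were 34.7% in KO and 42.0% in WT. Smpdl3a, a phosphodiesterase known as an LXR target in human macrophages, was the one listed gene called between KO and WT under PBS, where it averaged 76.8 ± 4.95 TPM in KO and 111 ± 5.75 TPM in WT libraries (-0.53, SE 0.0763, adjusted p = 0.00973). Smpdl3a rose with LPS by 1.26 in KO (adjusted p = 2.43e-07) and by 0.76 in WT (adjusted p = 1.6e-05), to 186 TPM in KO LPS and 189 TPM in WT LPS libraries. Scd2, a fatty acid desaturase, fell by 0.96 in KO (adjusted p = 0.0158) and by 1.20 in WT (adjusted p = 0.00408), with the KO call lost under median-of-ratios scaling (adjusted p = 0.0688). Arl4c, a GTPase tied to cholesterol secretion, fell by 0.63 in KO (adjusted p = 0.00286) and by 0.58 in WT (adjusted p = 0.00442), the WT call being lost under that scaling (adjusted p = 0.150).

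Of 9 other export genes tested 2 were called higher and 4 lower in KO (all genes, 7.82% and 26.9%), and 0 higher and 5 lower in WT (all genes, 7.95% and 34.1%). Apod, a lipocalin apolipoprotein, rose by 1.14 in KO (180.1 TPM in LPS, 82.4 TPM in PBS libraries, adjusted p = 0.0131) and was not called in WT (0.71, adjusted p = 0.0836). Clu, an apolipoprotein of glia, fell by 0.96 in KO (adjusted p = 0.0199) and by 1.46 in WT (adjusted p = 0.00176), the KO call being lost with median-of-ratios scaling (adjusted p = 0.0966), with the abundant gene classes removed and with voom. Abca2, a transporter of endosomal lipid, fell by 0.75 in KO (adjusted p = 0.00213) and by 0.86 in WT (adjusted p = 0.000971). Abca7, a relative of Abca1, fell by 0.32 in KO relative to WT averaged over both treatments (SE 0.0786, adjusted p = 0.0392), a call lost with median-of-ratios scaling (adjusted p = 0.0562).

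Beside Ch25h, 0 of 8 tested oxysterol genes were called higher, and 3 in KO and 4 in WT were called lower, where 26.9% of all genes in KO and 34.1% in WT were called lower. Gpr183, the receptor for the oxysterol that CYP7B1 makes from the product of CH25H, fell by 1.64 in KO (50.7 ± 10.7 TPM in LPS, 158 ± 6.60 TPM in PBS libraries, adjusted p = 1.32e-05). In WT it fell by 1.34 (55.8 ± 8.997 TPM in LPS, 142 ± 12.4 TPM in PBS libraries, adjusted p = 7.3e-05). Cyp7b1, that enzyme, averaged 3.17 TPM in WT LPS and 5.82 TPM in WT PBS libraries and fell by 0.75 (adjusted p = 0.0333), a call lost with each of the other scalings and with voom. Osbp, an oxysterol-binding transfer protein, fell by 0.52 in KO (adjusted p = 3.01e-05) and by 0.50 in WT (adjusted p = 5.98e-05), the WT call being lost with median-of-ratios scaling (-0.16, adjusted p = 0.0829).

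Among 10 lysosomal sterol genes the calls were 0 higher and 4 lower in KO, beside 26.9% of all genes lower, and 2 higher and 6 lower in WT, beside 34.1% lower. Npc2, which hands cholesterol on inside the lysosome, averaged 287 ± 22.6 TPM in KO LPS and 389 ± 53.2 TPM in WT LPS libraries, a difference of -0.43 that was not called (adjusted p = 0.0843). Stard3, a sterol transfer protein of late endosomes, fell by 0.96 in KO (87.1 TPM in LPS, 170.4 TPM in PBS libraries, adjusted p = 1.72e-05) and by 0.48 in WT (adjusted p = 0.00183), where the call was lost with median-of-ratios scaling (-0.14, adjusted p = 0.254). Of 7 genes of lipoprotein lipase maturation and control 0 were called higher, 3 lower in KO and 2 lower in WT, with the same shares of all genes called lower, among them Sel1l, an adaptor of the endoplasmic reticulum that LPL needs, which fell by 0.47 in KO (adjusted p = 0.000106) and by 0.28 in WT (adjusted p = 0.00294), where median-of-ratios scaling gave 0.05 and no call.

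**Figure D4:**
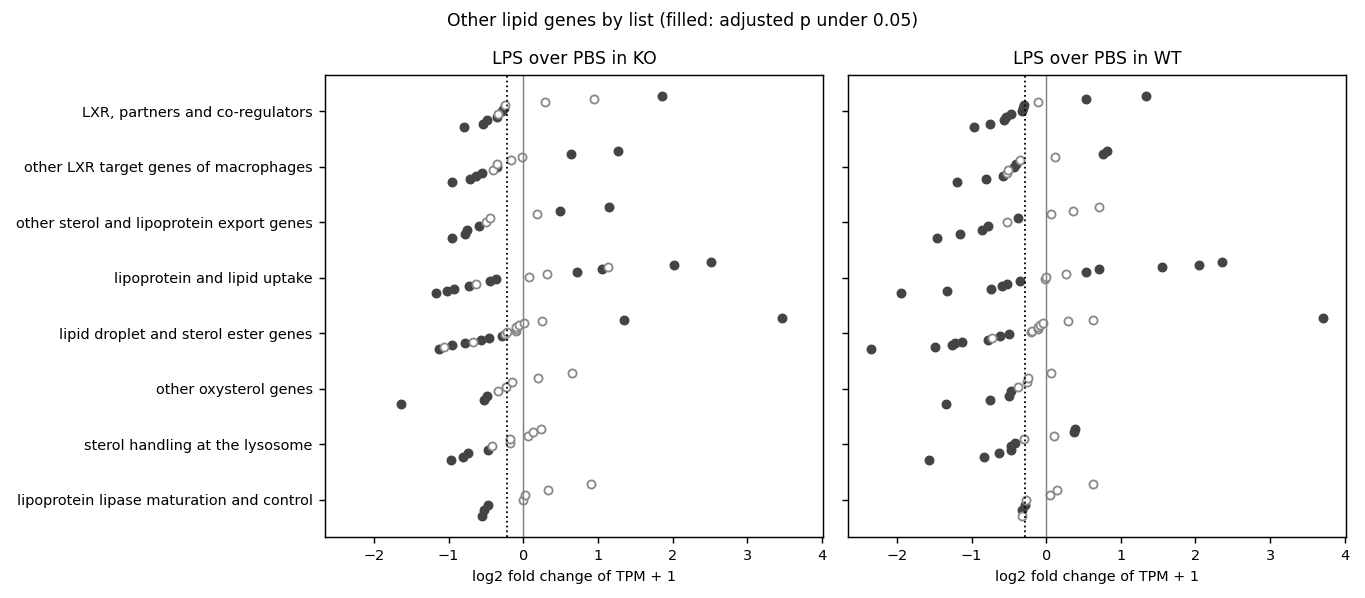
Log2 fold change of TPM + 1, LPS over PBS, of the 88 tested genes in 8 lists, in KO (left) and WT (right), 1 point a gene. Filled points are called at an adjusted p under 0.05, and the dotted line is the median of all genes tested, -0.22 in KO and -0.28 in WT; the point farthest right in either panel is Soat2, at 3.47 in KO and 3.71 in WT.

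The genes closest in pattern were found by the root mean square difference of centred log2(TPM + 1) over 14 libraries, among 11028 genes, as a description. Ch25h was closest to Il1b (0.47), which encodes interleukin 1 beta, and Clec4e (0.55), a pattern receptor, its own deviation, the root mean square around its mean, being 2.32. Nr1h3 was closest to Ifitm2 (0.26) and Arl5c (0.28), with an own deviation of 1.19. Mylip was closest to Ccdc93 and Kif21b (both 0.11), with an own deviation of 0.46. Lpl was closest to the ribosomal protein genes Rps27 (0.30) and Rpl21 (0.31), with an own deviation of 0.57. Among the 10 genes, Abca1 and Soat1 (0.231) and Abcg1 and Mylip (0.266) were the closest pairs. The first distance exceeded Abca1's own deviation (0.198) and was near that of Soat1 (0.233), so this pair was not alike in pattern. The second was not far below Abcg1's own deviation of 0.300. The gene of the 10 closest to Apoe was Soat1 (0.41), hardly less than Apoe's own deviation of 0.43.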

How the data were processed

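Bulk RNA of sorted mouse microglia was measured in 14 libraries. The values are TPM as deposited by the authors. The submitters' processing notes name featureCounts 2.0.1, STAR 2.7.10b, cutadapt 4.4 and FastQC 0.11.9, and a human genome build, although the gene IDs are those of mouse. The annotation, gene lengths and strand setting are not given in the sources used here. Of the 41739 gene IDs in the deposited table, 41588 were given a symbol from a reference of gene names. The 18724 genes that reached 1 TPM in 3 or more libraries were tested together on log2(TPM + 1) with limma 3.58.1 in R 4.3.3, with a mean for each of 4 groups and a prior variance that followed the intensity; p-values were adjusted by Benjamini-Hochberg over all genes, and a call is an adjusted p under 0.05. A fold change on that scale understates the change of low genes. Single values were compared with exact permutation tests, two-sided, in Python 3.11.15.

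The 10 genes and the gene and marker lists were chosen with earlier results of these data known. From each pathway list and comparison, called genes were named, at most 3 in each direction by size, or, with none called, at most 1 with the smallest p, and the text gives a selection of those. A gene of the uptake list is counted there but not reported by name here. Whole reads were recovered from TPM and exon lengths for 98.4% to 98.6% of values in each library (within 0.02 of a whole number), giving the depths stated, and limma's voom on those reads was an alternative chosen after seeing the data. The microglial marker sum without Tmem119 was also chosen after seeing the data. The other alternatives changed the pseudocount, the filter, the scaling, abundant gene classes, the variance model, the libraries and the replicate block. On simulated data with 200 of 18724 genes changed, the fit recovered 54% of changes of log2 size 1 and 83% of size 2 between KO and WT under PBS, and 61% and 89% under LPS. The changed genes were drawn above a set mean level, and the spread was shuffled across genes. The shares may therefore not hold for genes of low level or for the spread of any 1 gene. Unchanged genes gave 12 false calls under PBS and 11 under LPS. Changes below log2 size 1 were not simulated, and every KO over WT value of the 10 genes was below it, the largest being -0.95 for Ch25h under LPS. The simulation therefore does not say how often changes of their size would be called.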

Additional observations from a re-analysis of the deposited data

Results flagged for a closer look

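Mylip drew attention because its KO and WT libraries separated in opposite directions under the 2 treatments. The LPS and PBS libraries also differ in sex, so treatment and sex cannot be told apart in that switch. The same holds for any difference in handling or preparation between the LPS and PBS sets. KO over WT was -0.43 on the log2 scale under LPS and 0.27 under PBS, and the difference between these values was -0.70 (limma, unadjusted p = 0.0029, adjusted p = 0.397). Over the alternatives that difference ran from -0.81 to -0.54, with adjusted p from 0.115 to 0.743, so it was not called in any of those run. In the groups of 4 libraries no library of the 10 genes stood apart by Dixon's criterion, in 20 groups checked.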

How the results depend on the processing

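Under PBS limma called 0 of the 10 genes between KO and WT in all 27 alternatives. Under LPS it called 2 with median-of-ratios scaling (Abca1 and Mylip) and 1 with voom (Abca1), and 0 in the others. Averaged over treatments, the number was 0 without a filter, with abundant gene classes removed and without the intensity trend, and 0 to 2 when single libraries were left out. LPS over PBS gave 5 to 8 calls in each genotype over all alternatives. Over all genes, calls ranged from 8 to 999 between KO and WT under PBS, from 0 to 315 under LPS, from 371 to 1267 averaged over treatments, and from 4252 to 7384 in KO and 5493 to 8924 in WT between LPS and PBS. The cause of these changes was not tested.

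No value that changed sign was called, either as deposited or with the sign changed. For KO over WT under PBS, Apoe was -0.010 with library weights, -0.13 without WT_PBS_914 and KO_LPS_3, and -0.13 to 0.31 with single libraries left out, and Abcg1 was -0.10 to 0.018. Under LPS, Plin2 was -0.026 with median-of-ratios scaling and -0.11 to 0.18 with single libraries left out. Apoc1 was -0.0069 with library weights, -0.036 without WT_PBS_914 and KO_LPS_3, and -0.14 to 0.40 with single libraries left out, and Apoe was -0.32 to 0.069. Averaged, Apoe was 0.0062 with abundant gene classes removed and -0.15 to 0.096 with single libraries left out, and Apoc1 was -0.38 to 0.020. For LPS over PBS in KO, Abca1 was -0.07 with TPM as deposited. It was 0.20 with median-of-ratios scaling, 0.024 with quantile normalisation, 0.090 with abundant gene classes removed and 0.14 with voom, so its sign depended on the scaling. In WT, Abcg1 was 0.13 with median-of-ratios scaling, and Abca1 was -0.0096 without WT_PBS_914, alone or with KO_LPS_3. The difference of the KO effect between treatments was 0.0039 for Abca1 without WT_PBS_914 and KO_LPS_3.

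Same-numbered KO and WT LPS libraries did not deviate together over all genes (correlations 0.0608, -0.0563, -0.0862 and -0.0260). Weak correlations over all genes cannot exclude that equal numbers pair the libraries, and the main fit did not pair them. With the replicate block, 0 of the 10 genes and 23 of all genes were called between KO and WT under LPS. Averaged, 1 of the 10 was called, Lpl (0.67, adjusted p = 0.0277), and Abca1 was not (-0.30, adjusted p = 0.0807). Depth limits Apoc1, Ch25h and Nr1h3 most, which had few reads in PBS libraries.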
